A study of Mus musculus with 10 samples.

Results

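The genes described here are 37 genes of NF-kB and tumour necrosis factor (TNF) receptor signalling, given as a list of symbols and found by Ensembl ID in the count tables, out of 55471 genes counted. All 37 were present and all 37 passed the filter on low counts. The samples were total RNA of primary microglia, macrophages that reside in the brain. The cells came from wild-type mice and were kept in DMEM with serum and antibiotics. In the 5 libraries labelled 3222401L13Rik knockdown the cells had received gapmers, antisense oligonucleotides that direct RNase H to the RNA they bind, aimed at the long noncoding RNA 3222401L13Rik. In the 5 control libraries the cells had received control gapmers. The labels give no dose, time, age or sex, and do not say whether replicates were separate cultures or animals, so p-values measure only the spread between these libraries, which may be technical.

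NF-kB is a family of dimeric transcription factors built from Rela, Rel, Relb, Nfkb1 and Nfkb2. In resting cells IkB proteins hold the dimers in the cytoplasm. Ligands such as TNF, or bacterial products sensed by Toll-like receptors, lead through TRAF, RIPK and IRAK adaptors to the IkB kinase complex, which marks IkB for destruction, and the freed dimers then induce cytokines as well as their own inhibitors. In microglia this pathway is known for driving the inflammatory response to injury and infection.

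The libraries labelled knockdown held 5593627 to 6636082 reads and the control libraries 4321316 to 5639040 reads. The targeted RNA was not called lower. 3222401L13Rik had 22, 38, 24, 33 and 29 reads in knockdown-labelled replicates 1 to 5, against 30, 29, 28, 33 and 34 reads in control replicates 1 to 5 (log2 fold change -0.17, edgeR quasi-likelihood test, adjusted p = 0.541). Scaled by library totals it was at 4.71 ± 1.01 CPM in the knockdown-labelled and 6.06 ± 0.566 CPM in the control libraries (SD, n = 5 each, exact permutation test, two-sided, p = 0.0476). In edgeR its log2 fold change was -0.38 with library totals (adjusted p = 0.206), -0.42 when scaled on genes with little background (adjusted p = 0.16) and 0.32 once background reads were also subtracted (adjusted p = 0.618). The directions given here therefore follow the labels. The groups also differed in a density of reads on 1135 olfactory receptor genes, which microglia do not use. In RPKM, reads per kilobase of exon scaled to the library total, it was 0.257 ± 0.0674 in the knockdown-labelled and 0.599 ± 0.147 in the control libraries (SD, n = 5 each). An exact permutation test, two-sided, gave p = 0.00794, which is the smallest value 5 against 5 libraries can give. This density times a gene's exon length gives the reads expected from background, and their share of the gene's reads is called its background share. On 331 vomeronasal receptor genes the density was lower, at 0.154 ± 0.0444 RPKM in the knockdown-labelled and 0.386 ± 0.101 RPKM in the control libraries (SD, n = 5 each). Shares taken from it would be smaller. All shares given here use the olfactory receptor genes. Microglial markers were abundant, with 11 genes summing to 1993 to 2186 RPKM in the knockdown-labelled and 1922 to 2077 in the control libraries. The sums for astrocyte markers (8 genes) were 30.1 to 35.4 RPKM in the knockdown-labelled and 33.0 to 38.1 RPKM in the control libraries, and those for oligodendrocyte lineage markers (9 genes) 11.0 to 14.7 RPKM in the knockdown-labelled and 14.2 to 17.2 RPKM in the control libraries. Neuron markers (8 genes) summed to 3.04 to 5.60 RPKM in the knockdown-labelled and 7.37 to 13.6 RPKM in the control libraries, and endothelial and mural markers (10 genes) to 14.5 to 17.3 RPKM in the knockdown-labelled and 19.1 to 25.2 RPKM in the control libraries. Lymphocyte and neutrophil markers (8 genes) summed to 3.05 to 5.99 RPKM in the knockdown-labelled and 6.78 to 12.2 RPKM in the control libraries. None of these markers was at 0 in all libraries. Expected background made up 0.387% of the summed level of microglial markers, 11.9 to 18.8% for astrocytes, oligodendrocytes and vessels, 50.3% for neurons and 51.8% for lymphocytes and neutrophils. Their part in the results below was not tested.

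Many genes of this pathway are themselves known targets of NF-kB, so the 250 bases upstream of their start sites were searched for the kappaB consensus on both strands, with overlapping matches joined. Start sites came from RefSeq (GRCm38.p6), whose promoter table held 33 of the 37 genes and not Relb, Nfkb1, Nfkbiz or Ikbkb. A match was found for 10 of the 33, which is 30.3%, against 4.46% of the 27025 genes in the table. The 10 were the subunits Rel and Nfkb2, the IkB genes Nfkbia, Nfkbie and Nfkbid, the brakes Tnfaip3, Tnip1 and Cyld, the adaptor Traf3 and the kinase Map3k7. The windows of Nfkbia, the classical IkB, of Tnip1, a partner of Tnfaip3, and of Nfkbid, a nuclear IkB, are shown as examples of a cytoplasmic inhibitor, a brake and a nuclear inhibitor, with the matches in capitals, out of 6 genes whose windows with a match overlap no annotated exon.
Nfkbia (chr12:55492648-55492897, minus strand): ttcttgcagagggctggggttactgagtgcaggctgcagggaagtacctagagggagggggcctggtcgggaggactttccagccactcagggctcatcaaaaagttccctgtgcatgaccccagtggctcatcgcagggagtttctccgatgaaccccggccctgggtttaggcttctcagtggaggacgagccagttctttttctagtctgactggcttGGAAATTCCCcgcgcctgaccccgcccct
Tnip1 (chr11:54962941-54963190, minus strand): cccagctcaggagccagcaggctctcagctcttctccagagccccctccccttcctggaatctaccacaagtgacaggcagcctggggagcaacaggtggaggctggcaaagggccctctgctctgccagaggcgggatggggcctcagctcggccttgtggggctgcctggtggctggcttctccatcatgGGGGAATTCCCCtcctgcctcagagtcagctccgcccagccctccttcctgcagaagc
Nfkbid (chr7:30422156-30422405, plus strand): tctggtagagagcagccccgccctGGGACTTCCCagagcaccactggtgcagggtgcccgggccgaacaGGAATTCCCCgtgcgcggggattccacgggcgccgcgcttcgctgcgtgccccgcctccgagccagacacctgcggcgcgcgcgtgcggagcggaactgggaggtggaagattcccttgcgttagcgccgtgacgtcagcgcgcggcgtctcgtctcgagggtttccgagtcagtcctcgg
The Nfkbia match began 29 bases before the start site, that of Tnip1 began 58 bases before it, and those of Nfkbid began 226 and 181 bases before it. Rel, on chromosome 11, held GGGAAATCCCC beginning 92 bases upstream, Tnfaip3, on chromosome 10, held GGGACACCCC and GGAAATCCCC beginning 125 and 12 bases upstream, and the most upstream of the Nfkb2 windows, on chromosome 19, held GGGAATTCCCC and GGGGCTTTCC beginning 39 and 11 bases upstream. In the GENCODE M21 annotation Nfkbid, Nfkb2 and Tnfaip3 start further upstream, at 30421732, 46304320 and 19015657. The Nfkbid window and this Nfkb2 window thus lie inside the annotated genes, and that of Tnfaip3 almost wholly. A match is a description of letters and no evidence of binding, and a window without one says nothing about the factor. In the comparison between the groups the median log2 fold change was 0.208 for the 10 genes with a match and 0.210 for the 23 without.

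Exons of 12 of the 37 genes overlap a gene on the opposite strand (Nfkb2, Nfkbib, Bcl3, Tnfaip2, Ikbkg, Ikbke, Traf5, Ripk1, Myd88, Irak2, Irak3 and Irak4), and those of Traf5, Ripk1 and Irak1 overlap one on the same strand, so some of their reads may belong to the neighbour. Levels of the 37 genes spanned 59.0-fold when counted per length, in RPKM. The median gene had 10.2 RPKM, against 2.36 RPKM for all 19263 tested genes. The most abundant was Tnfrsf1b, the TNF receptor of immune cells, at 51.8 ± 1.99 RPKM in the knockdown-labelled and 50.3 ± 1.51 RPKM in the control libraries (SD, n = 5 each). It was followed by the transactivating subunit Rela at 28.9 RPKM over all libraries, Tnip1 at 28.4, the adaptor Tab2 at 25.1, Nfkbia at 23.1 and Tnfrsf1a, the widely expressed TNF receptor, at 22.7. The lowest was the adaptor Traf1 at 0.865 RPKM, with Traf5 at 3.16, Traf6 at 3.95 and Traf2 at 4.20 above it. Tnf itself, the ligand, stood at 16.1 ± 1.24 RPKM in the knockdown-labelled and 16.8 ± 1.67 RPKM in the control libraries (SD, n = 5 each). Among the subunits the order was Rela, Nfkb2 at 13.01, Nfkb1 at 10.8, Rel at 7.74 and Relb at 7.39 RPKM, and the order of the last pair differed between the groups. In the knockdown-labelled libraries Rel was at 7.74 ± 0.397 and Relb at 6.76 ± 0.420 RPKM, and in the control libraries Rel was at 7.74 ± 0.444 and Relb at 8.02 ± 0.698 RPKM (SD, n = 5 each), where they lay within their spread.

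**Figure D1:**
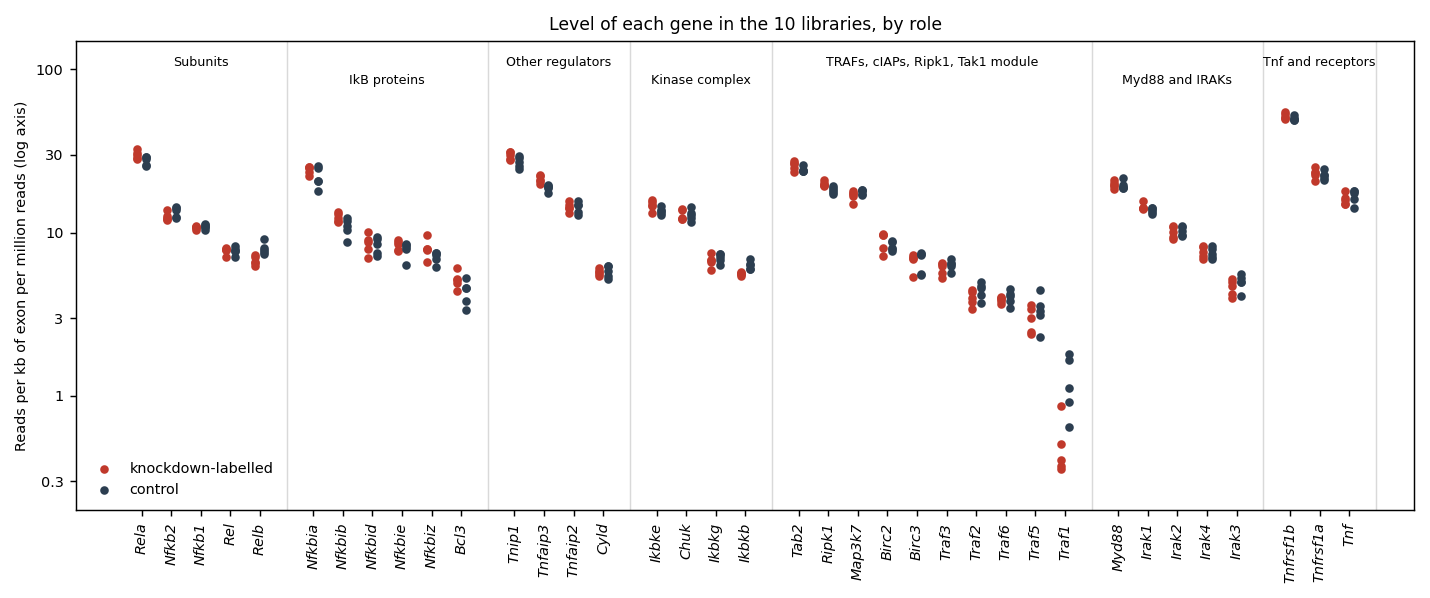
Each point is 1 library, with RPKM on a log axis, and the genes are ordered by level within their role. Tnfrsf1b stands highest at about 51.0 RPKM and Traf1 lowest at 0.865 RPKM, and for most genes the knockdown-labelled (left) and control (right) points lie close together on this axis.

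In CPM scaled by TMM, 23 of the 37 genes rose in the knockdown-labelled libraries, 1 fell and 13 were not called (adjusted p under 0.05 in edgeR's quasi-likelihood test, by Benjamini-Hochberg over 19263 genes). Of all tested genes 22.9% rose and 31.3% fell. The median log2 fold change was 0.21 for the 37 genes and -0.095 for all tested genes. In bulk RNA fewer cells of a type and less RNA per cell cannot be told apart. Background made up a small part of the reads of most of the 37 genes. Their median share was 3.98%, against 17.4% for all tested genes, and every gene but Traf1 lay under 20%. Of 22 genes under a 5% share 17 rose and 0 fell, where 75.5% of all tested genes under that share rose and 0.486% fell. Of 14 genes from 5 to 20% 6 rose and 0 fell, where 15.2% of all tested genes in that range rose and 6.48% fell. These rates are not matched for share. The 14 genes had shares of 5.22% (Rel) to 12.99% (Traf5), the 6 that rose had 5.22 to 8.51% (Bcl3), and rises were more frequent at low shares. In 10 genes every knockdown-labelled library lay above every control library, against 12.6% of all tested genes and 23.7% of those under a 20% share. In 0 genes was every knockdown-labelled library below every control, against 14.2% and 1.48%.

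**Figure D2:**
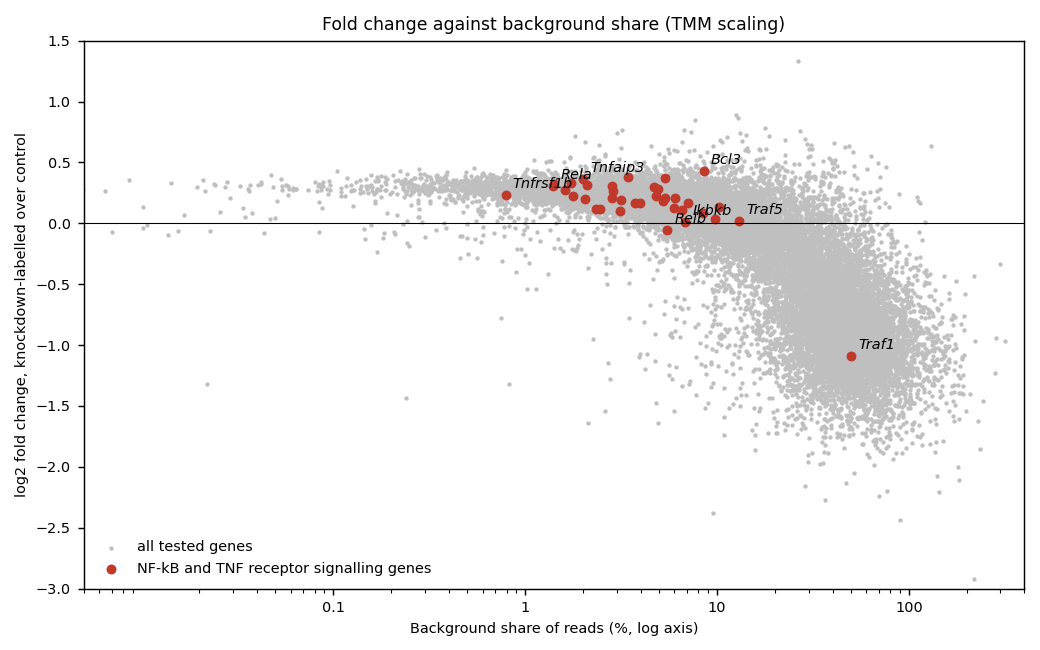
The log2 fold change of each tested gene (TMM scaling) is plotted against its background share on a log axis, with the 37 genes in red and all tested genes in grey, leaving out 7 genes beyond the axis limits and 15 with no exon length. The red points lie between 0.791 and 12.99% at fold changes of -0.06 to 0.43, inside the grey band, and Traf1 lies apart at 49.9% and -1.09.

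Most of these calls did not hold under another scaling. TMM factors computed on the 4728 tested genes under a 5% background share alone brought the median of those genes to -0.0017, against 0.24 before. Such factors centre the genes they are computed on near 0 by design, and 22 of the 37 genes are among them. The median of the 37 genes came to -0.041, which is in part set by that choice. Of the 37 genes 13 were above 0 and 24 below, where TMM over all tested genes had 35 above and 2 below. Of the 24 genes called with TMM 14 kept their sign on that scale and 10 turned (Rel, Nfkb1, Cyld, Tnfaip2, Chuk, Birc3, Myd88, Irak4, Tnfrsf1a and Tnfrsf1b), none of them called there, and 6 turned with library totals. Only Tnfaip3 and Traf1, 2 of the 24, were called in the same direction there. This fit over all tested genes was added after the data had been seen. The planned fit tested the 4728 genes under a 5% share alone, which include Tnfaip3 and not Traf1. It called 0 of the 22 genes higher and 0 lower, against 103 and 89 of the 4728. Low-background scaling below means these factors over all tested genes. With it 1 gene of the 37 was higher (Tnfaip3) and 4 were lower (Relb, Ikbkb, Map3k7 and Traf1), against 1.62% and 44.6% of all tested genes. In 0 and 2 of the 37 the groups did not overlap on that scale, with the knockdown-labelled libraries higher or lower, against 0.722% and 22.9%. With expected background reads also subtracted 0 were higher and 3 lower (Relb, Ikbkb and Traf1), against 0.748% and 11%, and 6 of the 37 had an unadjusted p under 0.05. With library totals as the only scaling 2 were higher (Tnfaip3 and Ripk1) and 3 lower (Relb, Ikbkb and Traf1), against 3.94% and 40.9%. Upper-quartile scaling called 8 higher and 2 lower, against 8.75% and 37.4%, and DESeq2 called 27 higher and 1 lower, against 25.9% and 26.2%. Tnfaip3 was called higher with TMM, low-background scaling and library totals, and Traf1 lower with all 3, while Relb and Ikbkb were called lower with the last 2. The median of all tested genes moved to -0.34 with low-background scaling and -0.30 with library totals. In lane 7 alone (3 against 3 libraries) 23 genes rose and 1 fell, against 20.7% and 28.9% of all tested genes. In lane 8 alone (2 against 2) 0 were called in either direction by edgeR, against 0.328% and 0.749%, 11 had an unadjusted p under 0.05, 33 of the 37 had a positive log2 fold change, and their median was 0.16. With the background density as a covariate edgeR called 0 of the 37, 4 of which had an unadjusted p under 0.05, against 0.0208% higher and 0.0831% lower over all tested genes. That density was 0.188 to 0.343 RPKM in the knockdown-labelled and 0.425 to 0.816 RPKM in the control libraries, with no overlap. This fit can therefore hardly separate the group from the density, and its lost calls and turned signs decide nothing.

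**Figure D3:**
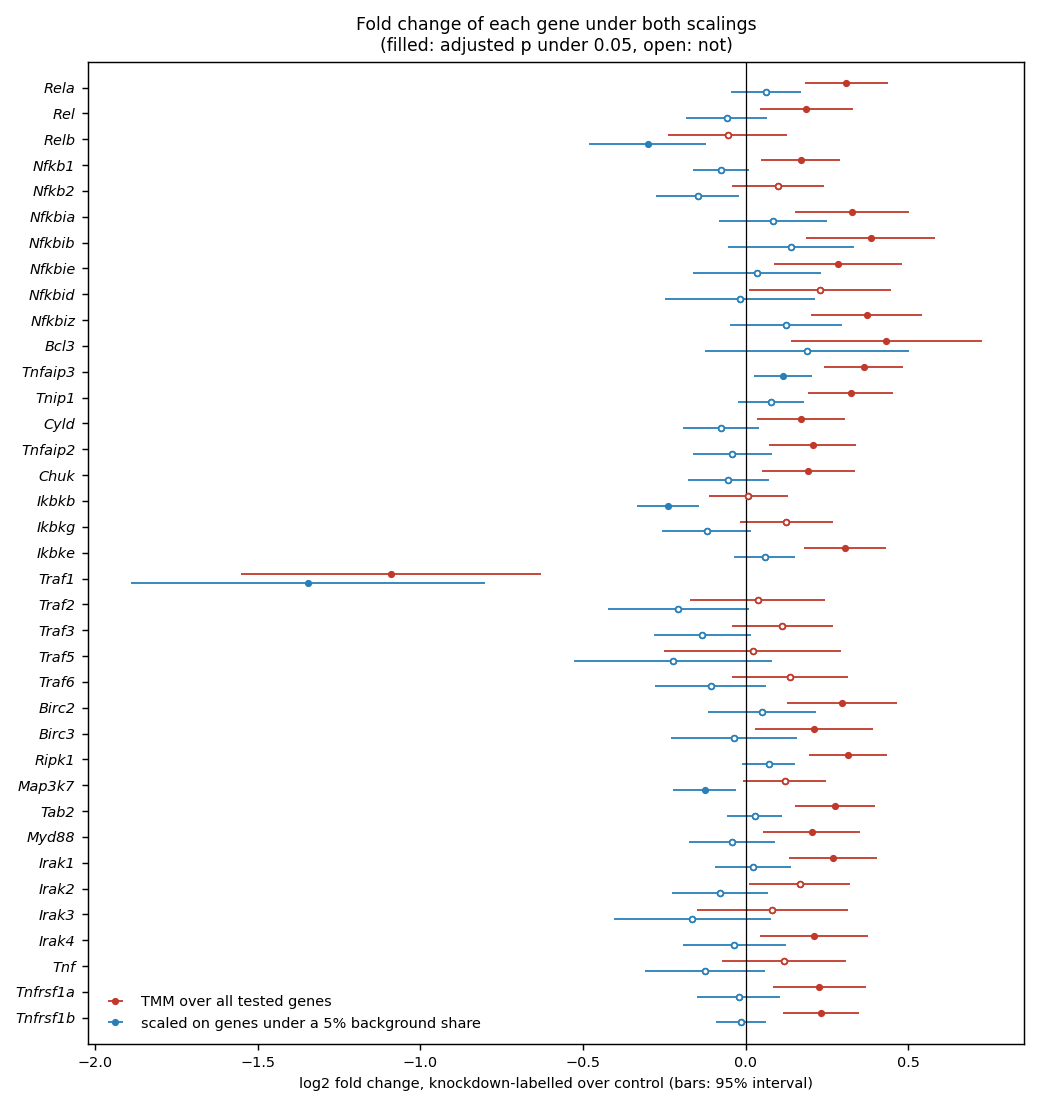
Log2 fold changes of the 37 genes, knockdown-labelled over control, with 95% intervals, under TMM over all tested genes (red) and under scaling on genes with a background share below 5% (blue), filled where the adjusted p was under 0.05. The red points are mostly right of 0 and the blue points gather around 0, with Relb, Ikbkb, Map3k7 and Traf1 left of it and Tnfaip3 right of it.

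The counts by role that follow stand beside 22.9% of all tested genes that rose and 31.3% that fell, and no role was tested against another. Under a 5% background share, where 75.5% of all tested genes rose, lay 3 subunits and 2 IkB kinase genes. So did 4 of the adaptor, ubiquitin ligase and kinase genes and 3 genes of the Toll-like and interleukin-1 receptor arm. The ligand gene was not called and both receptor genes rose on the TMM scale, all 3 with a background share under 5%, where 75.5% of all tested genes rose. Tnf was at 27.6, 29.5, 27.7, 25.7 and 32.5 CPM in knockdown-labelled replicates 1 to 5, against 25.7, 20.8, 27.6, 27.6 and 29.6 CPM in control replicates 1 to 5. The groups overlapped (log2 fold change 0.12, SE 0.10, adjusted p = 0.294), with control replicate 2 the lowest of the 10. Tnfrsf1b was at 204, 225, 213, 203 and 229 CPM in knockdown-labelled replicates 1 to 5, against 195, 169, 185, 178 and 188 CPM in control replicates 1 to 5. All knockdown-labelled libraries lay above all controls (log2 fold change 0.23, SE 0.059, adjusted p = 9.92e-04). Tnfrsf1a was at 63.3, 67.7, 65.5, 55.9 and 71.5 CPM in knockdown-labelled replicates 1 to 5, against 52.6, 52.8, 56.1, 59.0 and 56.6 CPM in control replicates 1 to 5. Here knockdown-labelled replicate 4 lay among the controls (log2 fold change 0.23, SE 0.072, adjusted p = 0.007). Under low-background scaling the log2 fold changes were -0.13, -0.015 and -0.022 for Tnf, Tnfrsf1b and Tnfrsf1a, with adjusted p-values of 0.268, 0.767 and 0.806. The ratio of Tnfrsf1b to Tnfrsf1a per kilobase of exon, which needs no scaling between libraries, was 2.18, 2.26, 2.21, 2.47 and 2.17 in knockdown-labelled replicates 1 to 5 and 2.51, 2.17, 2.24, 2.04 and 2.26 in control replicates 1 to 5. The groups covered the same range, with a difference of 0.0093 (SE 0.059, exact two-sided permutation test, p = 0.905) on the log2 scale.

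Among the 10 adaptor, ubiquitin ligase and kinase genes that link receptors to the IkB kinases, 4 rose, Traf1 fell and 5 were not called. Ripk1 (ENSMUSG00000021408, chr13:34002363-34037147 of GRCm38, plus strand), the kinase scaffold of the TNF receptor complex, had the second smallest p of the 37. Ripk1 was at 172, 182, 179.6, 184 and 185 CPM in knockdown-labelled replicates 1 to 5, against 147, 128, 141, 146 and 162 CPM in control replicates 1 to 5. The groups did not overlap (log2 fold change 0.31, SE 0.060, adjusted p = 2.99e-05), and the knockdown-labelled libraries lay within a narrow range. With library totals it was still called (0.11, adjusted p = 0.0282), and under low-background scaling it was not (0.070, adjusted p = 0.154). Its exons share 511 bases with Gm17084 on the same strand. Tab2, which tethers the kinase Map3k7 to ubiquitin chains, was at 172 ± 13.8 CPM in the knockdown-labelled and 142 ± 8.23 CPM in the control libraries (SD, n = 5 each) and rose by 0.27 on the log2 scale. Map3k7 itself was at 118 ± 10.5 CPM in the knockdown-labelled and 109 ± 6.29 CPM in the control libraries (SD, n = 5 each). It was not called with TMM (0.12), though it was without knockdown-labelled replicate 1 (0.19) or control replicate 5 (0.18). It was lower under low-background scaling over all tested genes (-0.13, adjusted p = 0.0298). That call was lost once background reads were also subtracted (-0.13, adjusted p = 0.0802). It was also lost when the genes under a 5% background share alone were tested in edgeR (-0.13, adjusted p = 0.136).

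The cIAP genes Birc2 and Birc3, ubiquitin ligases recruited by Traf2, rose by 0.30 and 0.21 on the log2 scale. Birc3 lost its call without knockdown-labelled replicate 2 (0.20) or 3 (0.20), or without control replicate 3 (0.16) or 5 (0.20). Traf2, Traf3, Traf5 and Traf6, adaptors of TNF family and Toll-like receptors, had log2 fold changes of 0.037, 0.11, 0.021 and 0.14, and none was called. Their 95% intervals lay within -0.25, the lower end for Traf5, and 0.31, the upper end for Traf6. Under low-background scaling the log2 fold changes were 0.050 for Birc2 and -0.037 for Birc3, and those of the 4 TRAF genes lay between -0.22 and -0.11, with no call.

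Traf1 (ENSMUSG00000026875, chr2:34941750-34961772 of GRCm38, minus strand), an adaptor that cells induce on activation, was the single gene that fell. Traf1 was at 4.73, 3.62, 3.54, 7.96 and 3.92 CPM in knockdown-labelled replicates 1 to 5, against 7.83, 14.3, 9.39, 13.6 and 5.71 CPM in control replicates 1 to 5. Knockdown-labelled replicate 4 lay above control replicates 1 and 5 and the groups overlapped (log2 fold change -1.09, SE 0.23, adjusted p = 1.53e-04). Its counts were the lowest of the 37, with 21 to 74 reads per library. Background density on olfactory receptor genes predicted 51.3% of its reads in the knockdown-labelled and 49.2% in the control libraries. These shares would be smaller with the lower density on vomeronasal receptor genes. The 2992 tested genes whose share was 40 to 60% had a median of -0.87 on the log2 scale, 0.0334% of them rose and 70.3% fell. After the expected background reads had been subtracted, with low-background scaling, Traf1 was at -1.44 (SE 0.40, adjusted p = 0.0162), beside a median of -0.99 for the same 2992 genes. With the background density as a covariate, which can hardly be separated from the group, the sign turned, to 0.26 (SE 0.35), and Traf1 was not called.

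Of the adaptors of the Toll-like and interleukin-1 receptor arm 3 of 5 rose. Myd88 was at 50.5, 59.96, 58.1, 52.7 and 54.7 CPM in knockdown-labelled replicates 1 to 5, against 53.7, 44.1, 46.2, 47.0 and 48.8 CPM in control replicates 1 to 5. Control replicate 1 lay within the knockdown-labelled range (log2 fold change 0.20, SE 0.075, adjusted p = 0.019). Irak1, a kinase recruited by Myd88, was at 74.1 ± 4.65 CPM in the knockdown-labelled and 61.5 ± 3.02 CPM in the control libraries (SD, n = 5 each) with groups that did not overlap (log2 fold change 0.27, SE 0.068, adjusted p = 9.62e-04). Irak4, the first kinase of the complex, rose by 0.21 and lost its call without knockdown-labelled replicate 2 (0.21), control replicate 3 (0.19) or control replicate 4 (0.19). Irak2 (0.17) and Irak3 (0.082), a brake within the family, were not called, though Irak2 gained a call in 5 of the 10 fits that left out a library (0.20 to 0.22). Under low-background scaling all 5 lay between -0.16 and 0.022 and none was called.

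Of the IkB kinase genes Chuk and Ikbke rose, and Ikbkb and Ikbkg were not called. Ikbkb, the main kinase of the canonical branch (ENSMUSG00000031537, chr8:22659212-22706589 of GRCm38, minus strand), was at 116, 117, 116, 113 and 118 CPM in knockdown-labelled replicates 1 to 5, against 111, 111, 110.2, 123 and 122 CPM in control replicates 1 to 5. The knockdown-labelled libraries all lay inside the control range, and Ikbkb was not called (log2 fold change 0.0078, SE 0.061, adjusted p = 0.919). Ikbke, an IkB kinase relative that also acts in interferon induction, was at 141, 158, 155, 124 and 144 CPM in knockdown-labelled replicates 1 to 5, against 118, 104, 113, 123 and 125 CPM in control replicates 1 to 5. Only knockdown-labelled replicate 4 lay within the control range (log2 fold change 0.30, SE 0.064, adjusted p = 9.63e-05). Chuk, the partner kinase of Ikbkb, was at 71.2 ± 5.78 CPM in the knockdown-labelled and 62.3 ± 6.71 CPM in the control libraries (SD, n = 5 each), a rise of 0.19 that lost its call without knockdown-labelled replicate 3 (0.17) or control replicate 1 (0.17). Ikbkg, the scaffold of the complex, was at 58.9 ± 3.65 CPM in the knockdown-labelled and 54.0 ± 1.84 CPM in the control libraries (SD, n = 5 each) and was not called (0.12). Under low-background scaling Ikbkb was lower (-0.24, SE 0.047, adjusted p = 1.31e-04), with groups that did not overlap, and it was also called after background subtraction (-0.19, adjusted p = 0.00714). Chuk was at -0.054, Ikbke at 0.058 and Ikbkg at -0.12 on that scale, with no call.

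Of the 6 IkB genes 5 rose. The median of the 6 was 0.35 on the log2 scale, and 4 of them had a background share under 5%, where 75.5% of all tested genes rose. Nfkbia was at 40.1, 45.3, 45.4, 37.3 and 44.3 CPM in knockdown-labelled replicates 1 to 5, against 39.9, 26.2, 38.3, 31.2 and 33.4 CPM in control replicates 1 to 5. Control replicates 1 and 3 lay inside the knockdown-labelled range (log2 fold change 0.33, SE 0.088, adjusted p = 0.00162). Nfkbib, a cytoplasmic IkB as well, was at 29.3 ± 2.58 CPM in the knockdown-labelled and 22.5 ± 3.34 CPM in the control libraries (SD, n = 5 each), a rise of 0.38 with no overlap. Nfkbie, another cytoplasmic IkB, was at 27.8 ± 2.69 CPM in the knockdown-labelled and 22.9 ± 2.46 CPM in the control libraries (SD, n = 5 each) and rose by 0.28, a call lost without control replicate 1 (0.23). The nuclear members followed, with Nfkbiz at 43.6 ± 6.48 CPM in the knockdown-labelled and 33.7 ± 1.68 CPM in the control libraries (SD, n = 5 each), again with no overlap, and Bcl3, a co-activator, at 13.8 ± 1.43 CPM in the knockdown-labelled and 10.2 ± 1.75 CPM in the control libraries (SD, n = 5 each). Their rises were 0.37 and 0.43, and that of Bcl3 was the largest of the 37 and rested on 41 to 85 reads per library. Nfkbid was not called (0.23, adjusted p = 0.0697), though it was called in 4 of the 10 fits that left out a library (0.27 to 0.32). Under low-background scaling the 6 genes lay between -0.018 and 0.19, 5 of them above 0, and none was called. With the background density as a covariate, which can hardly be separated from the group, Nfkbia was at -0.10 (SE 0.16), not called.

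Of the other regulators all 4 rose, 3 of them with a background share under 5%, where 75.5% of all tested genes rose. Tnfaip3 (ENSMUSG00000019850, chr10:19000910-19015657 of GRCm38, minus strand), a ubiquitin-editing enzyme that NF-kB induces and that shuts the pathway off, had the smallest p of the 37. Tnfaip3 was at 171, 169, 179.8, 149.9 and 164 CPM in knockdown-labelled replicates 1 to 5, against 123, 126, 131, 131 and 137 CPM in control replicates 1 to 5. The groups did not overlap (log2 fold change 0.36, SE 0.061, adjusted p = 4.01e-06, a 1.28-fold rise). It was called under low-background scaling over all tested genes (0.11, SE 0.044, adjusted p = 0.0289) and with library totals (0.16, adjusted p = 0.00404). It was not called after background subtraction (0.11, adjusted p = 0.089), nor when the genes under a 5% share alone were tested with the low-background factors. Its log2 fold change was 0.47 in lane 7 and 0.24 in lane 8. Tnip1, which helps Tnfaip3 bind its substrates, was at 104, 118, 123, 116 and 111 CPM in knockdown-labelled replicates 1 to 5, against 100.3, 85.8, 87.0, 81.5 and 102 CPM in control replicates 1 to 5. The groups did not overlap (log2 fold change 0.32, SE 0.066, adjusted p = 6.49e-05). Tnfaip2, a gene first known as TNF-induced, was at 77.9 ± 5.38 CPM in the knockdown-labelled and 67.6 ± 3.16 CPM in the control libraries (SD, n = 5 each) and rose by 0.21. Cyld, which removes ubiquitin chains from TRAF proteins, was at 78.2 ± 4.21 CPM in the knockdown-labelled and 69.5 ± 5.39 CPM in the control libraries (SD, n = 5 each), and its rise of 0.17 was lost without control replicate 3 (0.15). Under low-background scaling Tnip1 was at 0.078, Tnfaip2 at -0.041 and Cyld at -0.076, with no call.

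**Figure D4:**
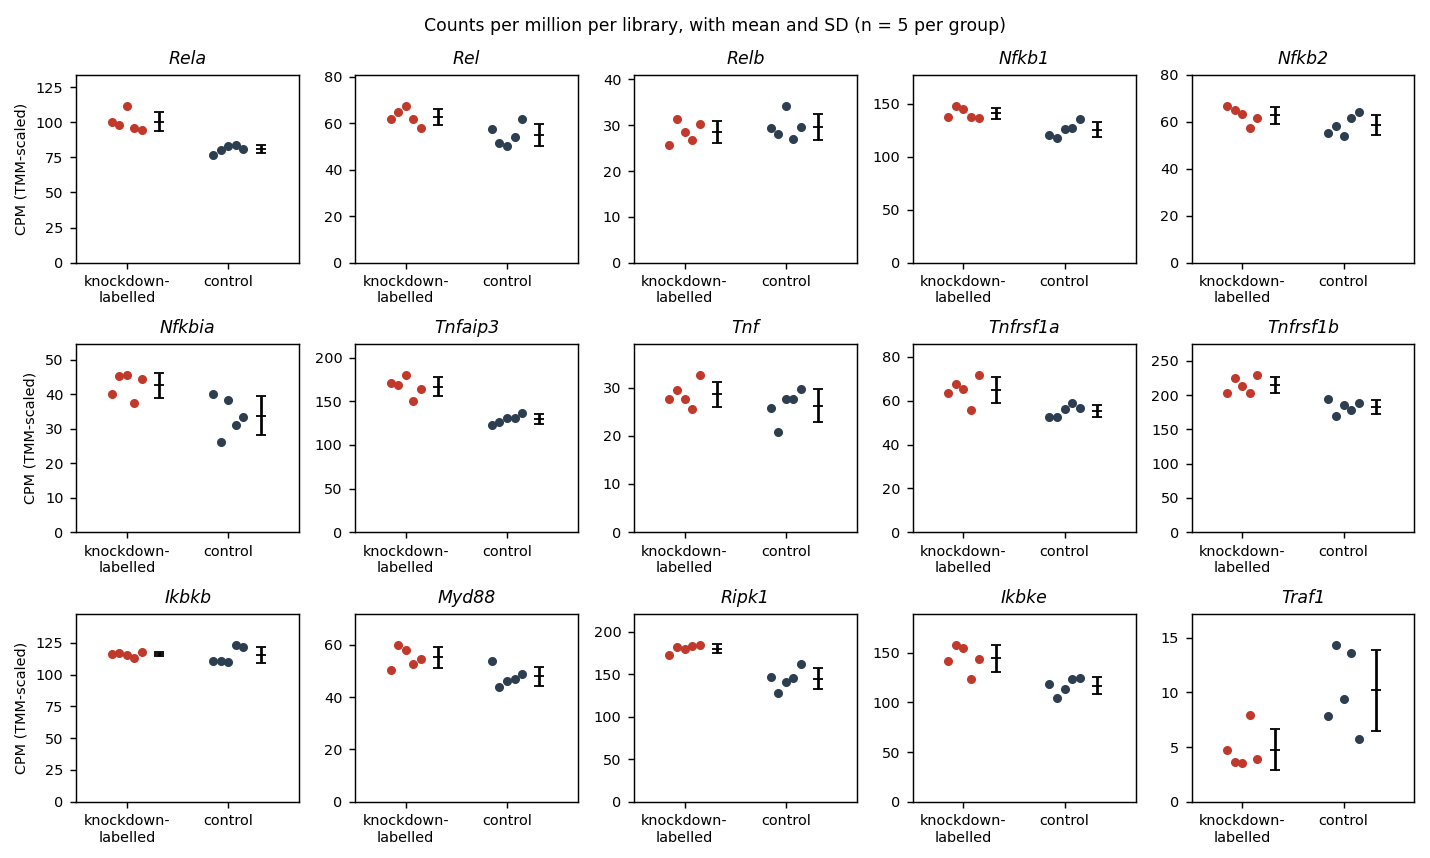
CPM (TMM-scaled) in each library for 15 of the genes, with mean and SD beside the points (n = 5 per group, axes from 0). Rela, Tnfaip3, Ripk1 and Tnfrsf1b show groups that do not overlap, while Relb, Ikbkb and Tnf overlap.

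Of the 5 subunits 3 rose. Rela, the main transactivating subunit (ENSMUSG00000024927, chr19:5637483-5648130 of GRCm38, plus strand), was at 101, 98.0, 112, 96.1 and 94.9 CPM in knockdown-labelled replicates 1 to 5, against 76.5, 80.4, 83.2, 83.9 and 80.9 CPM in control replicates 1 to 5. Every knockdown-labelled library lay above every control (log2 fold change 0.31, SE 0.064, adjusted p = 8.71e-05). Nfkb1, the precursor of a DNA-binding partner of Rela, was at 137, 148, 145, 137 and 137 CPM in knockdown-labelled replicates 1 to 5, against 120.4, 117, 126, 127 and 136 CPM in control replicates 1 to 5. The groups did not overlap (log2 fold change 0.17, SE 0.061, adjusted p = 0.0158). Rel, a transactivating subunit of immune cells, was at 61.8, 64.8, 67.5, 61.7 and 57.9 CPM in knockdown-labelled replicates 1 to 5, against 57.5, 51.5, 50.4, 54.0 and 62.0 CPM in control replicates 1 to 5. Control replicate 5 lay inside the knockdown-labelled range (log2 fold change 0.19, SE 0.072, adjusted p = 0.0247), and the call was lost without knockdown-labelled replicate 3 (0.18) or control replicate 3 (0.17). The subunits of the non-canonical branch were not called. Nfkb2 was at 66.7, 64.8, 63.1, 57.3 and 61.5 CPM in knockdown-labelled replicates 1 to 5, against 55.4, 58.0, 53.7, 61.8 and 63.9 CPM in control replicates 1 to 5. The groups overlapped (log2 fold change 0.10, SE 0.071, adjusted p = 0.239). Relb (ENSMUSG00000002983, chr7:19606217-19629438 of GRCm38, minus strand), the usual partner of the processed Nfkb2 product, was at 25.7, 31.4, 28.5, 26.7 and 30.3 CPM in knockdown-labelled replicates 1 to 5, against 29.5, 28.1, 34.2, 26.9 and 29.6 CPM in control replicates 1 to 5. Knockdown-labelled replicates 1 and 4 were the lowest of the 10 and control replicate 3 the highest (log2 fold change -0.056, SE 0.092, adjusted p = 0.622). Under low-background scaling Relb was lower (-0.30, SE 0.089, adjusted p = 0.00526), also after background subtraction (-0.28, adjusted p = 0.0423), while Rela was at 0.062, Nfkb1 at -0.077, Rel at -0.058 and Nfkb2 at -0.15 with no call.

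Because the calls moved with the scaling, pairs of genes were also compared within each library, as the ratio of reads per kilobase of exon. These 22 ratios were the 10 pairs of subunits, the 6 pairs of IkB kinase genes, Nfkbia over each subunit and the receptor pair given above, and they were chosen after the calls had been seen. Rela over Relb was 4.95, 3.95, 4.95, 4.55 and 3.96 in knockdown-labelled replicates 1 to 5 and 3.28, 3.63, 3.07, 3.94 and 3.45 in control replicates 1 to 5. The knockdown-labelled ratios were all above the control ratios, with a log2 difference of 0.36 (SE 0.10, exact two-sided permutation test, p = 0.00794). Nfkbia over Relb was 3.76, 3.49, 3.84, 3.37 and 3.52 in knockdown-labelled replicates 1 to 5 and 3.26, 2.25, 2.70, 2.79 and 2.72 in control replicates 1 to 5. Again the groups did not overlap, with a log2 difference of 0.40 (SE 0.092, same exact permutation p). Ikbkb over Ikbke was 0.390, 0.351, 0.354, 0.432 and 0.386 in knockdown-labelled replicates 1 to 5 and 0.444, 0.502, 0.460, 0.473 and 0.461 in control replicates 1 to 5. This ratio was lower in every knockdown-labelled library, with a log2 difference of -0.29 (SE 0.062, same exact permutation p). Adjusted over the 22 ratios these 3 exact permutation tests gave p = 0.0582, and none passed 0.05. With 0.00794 as the smallest p the design allows, 3 ratios at that value cannot pass among 22 unless further ratios also have small p-values. The paired genes differed in background share, with 1.40% for Rela, 1.73% for Nfkbia and 5.52% for Relb, and 6.81% for Ikbkb and 2.84% for Ikbke. The part of background in the ratios was not tested. With background reads subtracted the groups overlapped for Rela over Relb. The 3 log2 differences were then 0.33, 0.37 and -0.26 (adjusted exact permutation p = 0.175, 0.0873 and 0.0873). Without subtraction they were 0.47, 0.45 and -0.36 in lane 7, and 0.20, 0.32 and -0.19 in lane 8. The log2 difference of Rela over Nfkb1 was 0.14 (SE 0.050, adjusted exact permutation p = 0.0873) and that of Rela over Nfkb2 was 0.21 (SE 0.066, adjusted exact permutation p = 0.0998), and the groups overlapped in both.

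**Figure D5:**
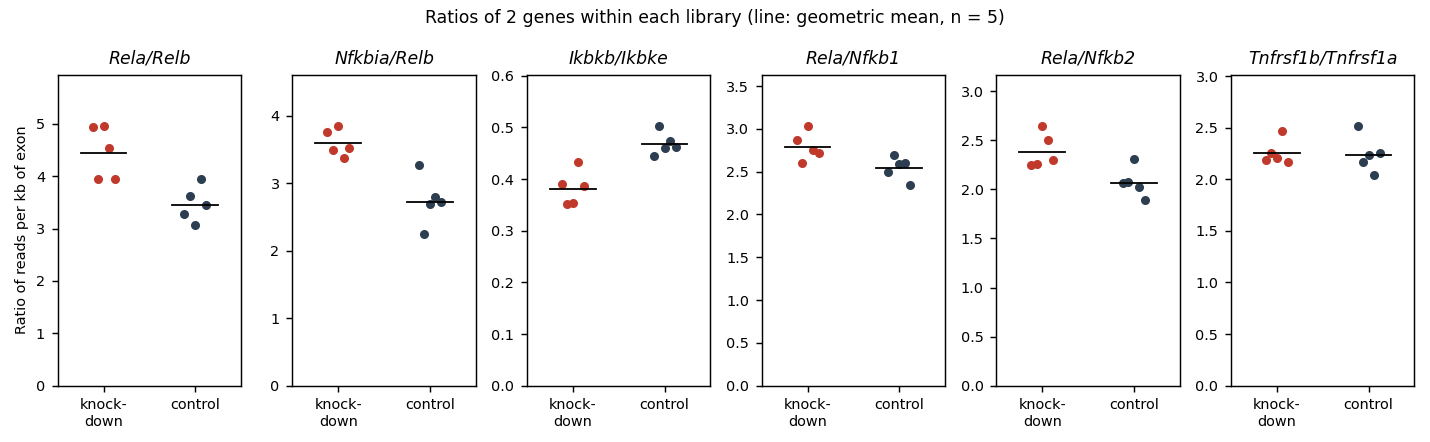
Ratios of reads per kilobase of exon for 6 gene pairs in each library, with the geometric mean as a line and axes from 0. Rela/Relb and Nfkbia/Relb are higher and Ikbkb/Ikbke lower in all 5 knockdown-labelled libraries, and Tnfrsf1b/Tnfrsf1a covers the same range in both groups.

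The rest of the pathway was read from 3 lists. Of 45 further adaptors, ligases and regulators 44 were tested, of which 19 rose and 2 fell, against 22.9% and 31.3% of all tested genes and 75.5% rising under a 5% share, and the median was 0.16 on the log2 scale. Under low-background scaling 1 was higher and 5 were lower, against 1.62% and 44.6% of all tested genes. With library totals the counts were 5 and 5, against 3.94% and 40.9%. The smallest p-values were those of Tifa, an adaptor that binds Traf6 (0.45, SE 0.071), the Tbk1 partner Tank (0.35, SE 0.064), the apoptosis inhibitor Xiap (0.32, SE 0.062), the kinase Tbk1 (0.31, SE 0.061), the caspase-8 regulator Cflar (0.30, SE 0.061) and the ubiquitin ligase Peli1 (0.31, SE 0.066). Tifa was also called under low-background scaling (0.21, SE 0.061, adjusted p = 0.00593), where it was the only gene of this list called higher. The 2 that fell were the adaptor Traf4 (-0.80, SE 0.24) and Btrc (-0.27, SE 0.086), the receptor of the ligase that destroys IkB, with background shares of 24.6 and 20.6%.

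Of 42 TNF superfamily ligands and receptors 31 were tested, 3 rose and 9 fell, against 22.9% and 31.3% of all tested genes, with a median of -0.30 and a median background share of 29.95%. The falls numbered 5 with DESeq2, against 26.2% of all tested genes, and 15 under low-background scaling, against 44.6% (with 0 rises, against 1.62%). After background subtraction the falls numbered 3, against 11%. They numbered 5 without knockdown-labelled replicate 3, the lowest of the fits that left out a library, 6 without knockdown-labelled replicate 5 or control replicate 4, and 13 without knockdown-labelled replicate 1. The receptor activator of NF-kB, Tnfrsf11a (0.31, SE 0.062), the lymphotoxin receptor Ltbr (0.32, SE 0.079) and the ligand Tnfsf12 (0.29, SE 0.093) rose. The falls with the smallest p were those of the ectodysplasin receptor Edar (-1.59, SE 0.33), the decoy receptor Tnfrsf11b (-1.67, SE 0.35), the ligand Eda (-1.23, SE 0.33) and the receptor Relt (-0.96, SE 0.27), which were all under 5.1 CPM in the control libraries and had background shares of 35.9 to 111%.

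Of 40 known NF-kB target genes 36 were tested, 16 rose and 1 fell, with a median of 0.20, against 22.9% and 31.3% of all tested genes and 75.5% rising under a 5% share. Under low-background scaling 1 was higher and 5 were lower, against 1.62% and 44.6% of all tested genes. The smallest p-values were those of Il1rn, the interleukin-1 receptor antagonist (0.43, SE 0.061), Marcksl1 (0.36, SE 0.067), the urokinase gene Plau (0.29, SE 0.059), the chemokine genes Cxcl16 (0.30, SE 0.062) and Ccl3 (0.25, SE 0.060) and the activation marker Cd83 (0.26, SE 0.063). Il1rn averaged 143 ± 4.48 CPM in the knockdown-labelled and 106 ± 7.21 CPM in the control libraries (SD, n = 5 each), and was the 1 target gene higher under low-background scaling (0.19, SE 0.046, adjusted p = 0.00112). The inducible nitric oxide synthase gene Nos2 fell (-0.63, SE 0.22, background share 29.9%), a call lost without knockdown-labelled replicate 2, without control replicate 2, with no filter on low counts and after background subtraction (-0.75, adjusted p = 0.087). Il6, Cxcl1, Csf2 and Csf3 failed the filter on low counts, Il6 with 41 reads and Cxcl1 with 87 reads over all 10 libraries. The 3 lists share the 10 libraries with the 37 genes and are no separate evidence.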

How the data were processed

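Libraries had been made with a stranded total RNA kit for low input, per the labels' protocols, and reads were demultiplexed with bcl2fastq and the build was GRCm38, per the submitters' processing notes. Which aligner, counter, strand setting and annotation were used is not given in the sources used here. The deposited files held whole-number read counts for 55471 genes per library, 5 libraries per group, plus 92 spike-in entries with 0 to 2 reads that were left out. Names and exon lengths came from GENCODE M21 (55230 genes matched). Libraries of 1 group differed by more than counting noise, with a chi-square of 1.76 to 4.48 per degree of freedom.

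After filterByExpr and TMM scaling, edgeR 4.0.16 (R 4.3.3, robust quasi-likelihood fit on group alone) tested all genes that passed, and p-values were adjusted over them by Benjamini-Hochberg. The test was first checked on simulated counts. No difference in background between the groups was built into them, so the check does not cover one. Standard errors are the log2 fold change over the root of its F statistic. RPKM used library totals and all annotated exon bases. Expected background reads were olfactory receptor density times exon length, and were rounded after subtraction. Replicates 1 to 3 ran on lane 7 and 4 and 5 on lane 8, per the file names. Alternatives used DESeq2 1.42.0, limma 3.58.1 voom and other scalings, filters, covariates and libraries. Within-library ratios were compared with exact permutation tests (252 splits, scipy 1.17.1). Members and lists were chosen with earlier results of these data known. Values per library are given for the subunits, Nfkbia, Tnfaip3, Tnf and its receptors, Ikbkb, Myd88, the fallen gene and the 3 smallest p-values, and Ikbke was added after its values were seen. From each other list up to 6 genes with the smallest p are named, plus genes behind counts of 5 or fewer. A planned comparison of protein sequences was not run.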

Additional observations from a re-analysis of the deposited data

Results flagged for a closer look

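In 2 of the 74 sets of 5 CPM values (37 genes in 2 groups) 1 library stood far from the other 4 by Dixon's criterion, which chance meets in about 1 of 20 sets. Traf1 was at 7.96 CPM in knockdown-labelled replicate 4, against 3.54 to 4.73 CPM in the other knockdown-labelled libraries. Without that library its log2 fold change was -1.34, still called. Cyld was at 70.9 CPM in the same library, against 78.4 to 81.3 CPM in the others. Without it the log2 fold change of Cyld was 0.22, also called. This library had the highest background density of the knockdown-labelled group, 0.343 against 0.188 to 0.313 RPKM, and the part of that density in both values was not tested.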

How the results depend on the processing

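Counts are given as higher and lower, and a list is left out where its counts stayed within 1.5 times. Upper-quartile scaling gave 8 and 2 of the 37 genes, 1685 and 7195 of all genes, 8 and 3 other pathway genes and 5 and 4 target genes. Library totals gave 2 and 3 of the 37 genes, 759 and 7888 of all genes, 5 and 5 other pathway genes, 1 and 14 TNF superfamily genes and 3 and 5 target genes. With low-background scaling over all tested genes, added after seeing the data, the counts were 1 and 4 of the 37 genes, 312 and 8589 of all genes, 1 and 5 other pathway genes, 0 and 15 TNF superfamily genes and 1 and 5 target genes, and with background subtracted as well 0 and 3 of the 37 genes, 144 and 2124 of all genes, 1 and 4 other pathway genes, 0 and 3 TNF superfamily genes and 1 and 0 target genes. Testing the 4728 genes under a 5% share alone gave 0 and 0 of the 37 genes, 103 and 89 of all genes, 1 and 0 other pathway genes, 0 and 0 TNF superfamily genes and 1 and 0 target genes, and with subtraction 0 and 0 of the 37 genes, 34 and 48 of all genes, 0 and 0 other pathway genes, 0 and 0 TNF superfamily genes and 1 and 0 target genes, with 22 of the 37 genes in those fits (edgeR, unadjusted p under 0.05 for 3 of them in each). A filter of 5 CPM in 5 libraries gave 11 and 1 of the 37 genes, 2057 and 2239 of all genes, 9 and 3 other pathway genes, 2 and 4 TNF superfamily genes and 8 and 3 target genes, and no filter 30 and 1 of the 37 genes, 26 and 1 other pathway genes, 5 and 7 TNF superfamily genes and 18 and 0 target genes. DESeq2 gave 27 and 1 of the 37 genes, 21 and 1 other pathway genes and 5 and 5 TNF superfamily genes, and an adjusted p under 0.01 gave 14 and 1 of the 37 genes, 3 and 5 TNF superfamily genes and 15 and 0 target genes. Lane 8 alone gave 0 and 0 of the 37 genes, 67 and 153 of all genes, 0 and 0 other pathway genes, 0 and 0 TNF superfamily genes and 0 and 0 target genes, and the density covariate 0 and 0 of the 37 genes, 4 and 16 of all genes, 0 and 0 other pathway genes, 0 and 0 TNF superfamily genes and 0 and 0 target genes. Limma-voom, lane as a covariate and lane 7 alone moved no count of these genes by over 1.5 times.

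Leaving out 1 library gave 20 to 25 rises and 1 fall of the 37, 4032 to 5015 and 4928 to 6967 over all genes, 16 to 21 and 2 other pathway genes, 3 to 4 and 5 to 13 TNF superfamily genes, and 16 to 17 and 0 to 3 target genes. Relb ranged from -0.083 to 0.011 and Traf5 from -0.071 to 0.12, and Tnfrsf1b over Tnfrsf1a from -0.024 to 0.051. That ratio was at -0.0030 with background subtracted and -0.056 in lane 7. Leaving out 1 library moved 3222401L13Rik between -0.25 and -0.077 and the density ratio between 0.392 and 0.471.

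Log2 fold changes turned sign as follows, and the cause was not tested. With library totals they were Rel -0.018, Nfkb1 -0.037, Nfkb2 -0.11, Cyld -0.035, Tnfaip2 -0.00068, Chuk -0.013, Ikbkb -0.20, Ikbkg -0.080, Traf2 -0.17, Traf3 -0.093, Traf5 -0.18, Traf6 -0.068, Map3k7 -0.086, Myd88 -0.0028, Irak2 -0.039, Irak3 -0.12 and Tnf -0.086. With low-background scaling they were Rel -0.058, Nfkb1 -0.077, Nfkb2 -0.15, Nfkbid -0.018, Cyld -0.076, Tnfaip2 -0.041, Chuk -0.054, Ikbkb -0.24, Ikbkg -0.12, Traf2 -0.21, Traf3 -0.13, Traf5 -0.22, Traf6 -0.11, Birc3 -0.037, Map3k7 -0.13, Myd88 -0.043, Irak2 -0.080, Irak3 -0.16, Irak4 -0.035, Tnf -0.13, Tnfrsf1a -0.022 and Tnfrsf1b -0.015, and on the low-background genes alone Nfkb1 -0.077, Nfkb2 -0.15, Nfkbid -0.018, Tnfaip2 -0.041, Chuk -0.054, Map3k7 -0.13, Myd88 -0.043, Irak2 -0.080, Tnf -0.13, Tnfrsf1a -0.022 and Tnfrsf1b -0.015. With background subtracted they were Rel -0.020, Nfkb1 -0.061, Nfkb2 -0.14, Cyld -0.016, Tnfaip2 -0.036, Chuk -0.044, Ikbkb -0.19, Ikbkg -0.078, Traf2 -0.12, Traf3 -0.085, Traf5 -0.10, Traf6 -0.0046, Map3k7 -0.13, Myd88 -0.048, Irak2 -0.060, Irak3 -0.091, Tnf -0.12, Tnfrsf1a -0.030 and Tnfrsf1b -0.035, and on those genes alone Nfkb1 -0.061, Nfkb2 -0.14, Tnfaip2 -0.036, Chuk -0.044, Map3k7 -0.13, Myd88 -0.048, Irak2 -0.060, Tnf -0.12, Tnfrsf1a -0.030 and Tnfrsf1b -0.035. 3222401L13Rik was at 0.32 (adjusted p = 0.618) after subtraction. With upper-quartile scaling they were Nfkb2 -0.049, Ikbkb -0.14, Ikbkg -0.021, Traf2 -0.11, Traf3 -0.034, Traf5 -0.12, Traf6 -0.0093, Map3k7 -0.027, Irak3 -0.064 and Tnf -0.027, and with the stricter filter Nfkb2 -0.021, Ikbkb -0.11, Traf2 -0.080, Traf3 -0.0063, Traf5 -0.10 and Irak3 -0.037. With the density covariate they were Rel -0.019, Nfkbia -0.10, Chuk -0.037, Ikbkb -0.056, Traf1 0.26, Traf6 -0.15, Map3k7 -0.084, Myd88 -0.013 and Tnf -0.25, and in lane 8 alone Relb 0.034, Nfkb2 -0.060, Chuk -0.019 and Ikbkb -0.066. Relb was at 0.014 with DESeq2 and 0.075 with no filter.

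Same-numbered libraries of the groups shared a number and a lane, and the labels do not say whether they were paired in any other way. Their deviations correlated at -0.213 to 0.160, over 0.1 in 2 of 5 pairs, and 1 of 5 libraries of each group correlated best with its own number. The replicate block gave 23 and 1 of the 37 genes. For genes that were not called, differences within the intervals given were not excluded with 5 libraries of each group, at 4321316 to 6636082 reads per library.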
